A study of Mus musculus with 2 samples.

Results

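The endothelin system was examined in unsorted mouse bone marrow cells grown as 2 cultures, a wildtype one and a Cpdm one. It was taken as 6 genes, the receptor genes Ednra and Ednrb, the ligand genes Edn1 and Edn3 and the converting enzyme genes Ece1 and Ece2. The set was chosen by the measured signals themselves, because Ednrb was known to be higher in Cpdm, so the differences below describe these 2 arrays and carry no test. Probe sets annotated to exactly 1 of these genes were used, which gave 13 probe sets for 5 genes among 45037 probe sets that are not controls. All 5 genes were measured, meaning that at least 1 probe set lay at or above a floor signal in at least 1 array, among 14055 measured genes in all. No probe set used here was annotated to Ednra, which was not analysed here.

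Cpdm mice carry a spontaneous mutation of Sharpin, whose protein is part of the complex that builds linear ubiquitin chains, and develop chronic proliferative dermatitis. Both cultures were grown for 10 days with ascorbic acid at 50 µg/ml and β-glycerophosphate at 10 mM, supplements that favour osteoblast differentiation, and received no other treatment. The sources used here do not give the strain, the age and sex of the mice or the number of mice per culture. Unsorted marrow holds stromal and blood cells together, and in such bulk RNA a different number of cells of a type and a different amount of RNA per cell cannot be told apart. Values are linear MAS5 signals, the Affymetrix summary of the probes of a probe set.

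Endothelins are short vasoactive peptides. They are cut from inactive precursors by the membrane metalloproteases endothelin-converting enzyme 1 and 2, and act on 2 G protein-coupled receptors, of which receptor A prefers the endothelin made from Edn1 and receptor B, encoded by Ednrb, binds all of them with like affinity. Receptor B also removes endothelin from its surroundings. Ednrb and Edn3 are best known for guiding neural crest cells that become melanocytes and gut neurons, and endothelin made from Edn1 is known as a growth factor for osteoblasts.

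The stretches of 250 bases before the listed start sites of the 3 genes that passed 2-fold are shown because they are the DNA nearest to the transcripts that differed. They come from RefSeq on build GRCm38.p6, and each reads towards the gene. The Ednrb stretch is chr14:103843702-103843951 on the minus strand, the Edn1 stretch chr13:42301226-42301475 on the plus strand and the Edn3 stretch chr2:174760369-174760618 on the plus strand. Capitals mark matches to the motifs named next.
Ednrb: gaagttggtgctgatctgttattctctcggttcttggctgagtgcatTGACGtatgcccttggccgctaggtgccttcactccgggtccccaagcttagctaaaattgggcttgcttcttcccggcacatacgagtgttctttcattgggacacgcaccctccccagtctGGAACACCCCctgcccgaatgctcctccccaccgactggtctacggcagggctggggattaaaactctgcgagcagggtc
Edn1: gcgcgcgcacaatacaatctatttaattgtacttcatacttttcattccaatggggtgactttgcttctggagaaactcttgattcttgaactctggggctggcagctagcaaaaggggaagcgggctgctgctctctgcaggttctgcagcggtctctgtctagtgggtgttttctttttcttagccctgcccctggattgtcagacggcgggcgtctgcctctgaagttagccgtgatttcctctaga
Edn3: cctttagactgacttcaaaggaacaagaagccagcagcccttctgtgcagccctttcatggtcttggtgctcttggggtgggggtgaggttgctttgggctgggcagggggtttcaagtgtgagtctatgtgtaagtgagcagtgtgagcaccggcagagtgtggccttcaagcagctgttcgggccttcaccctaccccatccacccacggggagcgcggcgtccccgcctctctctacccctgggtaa

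Both strands were searched for 8 motifs, the 10-base NF-κB motif, the AP-1 motif TGANTCA, the cAMP response half-site TGACG, the RUNX motif TGTGGT, the GC box GGGCGG, the hypoxia core ACGTG, the GATA motif AGATAA and the TATA box TATAAA. The Ednrb stretch held 1 match to the NF-κB motif, from base -80 to base -71 before the start, and 1 to the cAMP half-site, from base -203 to base -199, and the matches did not overlap. Among 32851 promoter stretches of the same length, 7.25% held the NF-κB motif and 17.8% the cAMP half-site. The Edn1 and Edn3 stretches held none of the 8 motifs. GC content was 56.8% for Ednrb, 50.4% for Edn1 and 59.2% for Edn3, beside a median of 52.4% over all stretches. The RefSeq record of the Ednrb gene begins upstream of the Ednrb stretch, so other starts of this gene were not searched. A match is a run of letters and does not show that a factor binds there.

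Among the 5 measured endothelin genes, Ednrb and Edn1 were higher in Cpdm by 2-fold or more, Edn3 was at least 2-fold lower, and Ece1 and Ece2 lay between. Over all measured genes 11.8% differed by at least 2-fold, with 5.84% higher and 5.98% lower. Because the set was picked for Ednrb in this same comparison, the count of 3 of 5 is given without reading anything from it. No culture was replicated, so there is no error between cultures for any value.

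The receptor gene Ednrb was read by 3 probe sets, and all of them exceeded the floor in each array. The brightest, 1437347_at, read 1160 in Cpdm and 129 in wildtype. In the Cpdm array this was brighter than 97.6% of all probe sets, and in the wildtype array brighter than 79.0%. The probe set 1426314_at read 198 against 53.4, and 1423594_a_at read 109 against 47.8. The Cpdm culture was thus the higher of the cultures by each probe set, with log2 ratios of Cpdm over wildtype of 3.17, 1.89 and 1.18. As folds these were 8.99, 3.72 and 2.27, so the direction and the passing of 2-fold did not rest on the choice of probe set, whereas the size did. By its brightest probe set Ednrb ranked 14th from the top among the log2 ratios of 14055 genes.

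**Figure D1:**
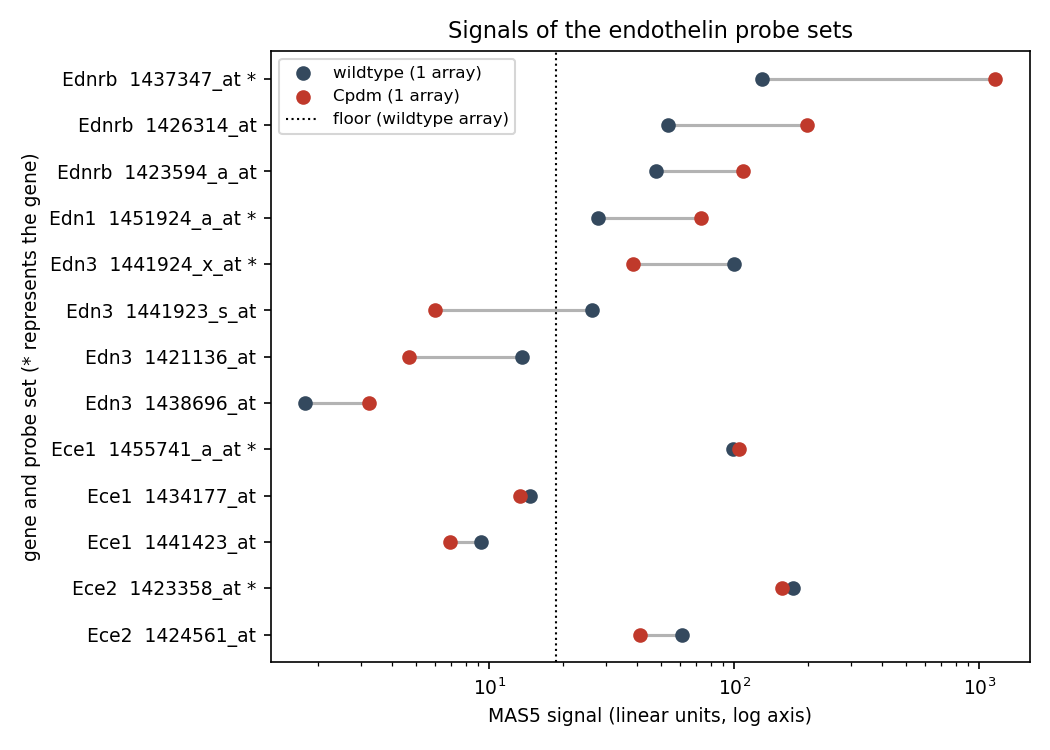
Signal of each of the 13 endothelin probe sets in the wildtype array (dark points) and the Cpdm array (red points), on a log axis, with a dotted line at the wildtype floor of 18.7. The Cpdm point lies to the right for the 3 Ednrb probe sets and for Edn1, to the left for 3 of the 4 Edn3 probe sets, and beside the wildtype point for the main probe sets of Ece1 and Ece2.

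The 3 Ednrb probe sets differed from each other more than those of most genes with 3 probe sets above both floors. The Ednrb log2 ratios spanned 1.98, and had a mean of 2.08 ± 1.01 (SD, n = 3 probe sets, which share the same 2 RNA samples). Among 1262 genes with exactly 3 probe sets above both floors, the median span was 0.57, the 95th percentile was 1.47, and 98.7% of genes had a span no larger than that of Ednrb. Those genes were not chosen for a large ratio, as Ednrb was, and spans among genes of like ratio were not compared. In 57 of those genes the brightest probe set was at least 2-fold higher in Cpdm, and all 3 probe sets passed 2-fold in 11 of the 57 (19.3%), Ednrb among them. For Ednrb the ratio fell in the same order as the signal, as it did for 30 of the 57 genes (52.6%). Across 259 genes whose brightest probe set was at least 2-fold higher and which had a second one, the second gave the smaller ratio in 208 (80.3%). These genes were taken for the ratio of their brightest probe set, which by itself favours a smaller second ratio, so the counts describe the arrays and do not account for Ednrb.

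**Figure D2:**
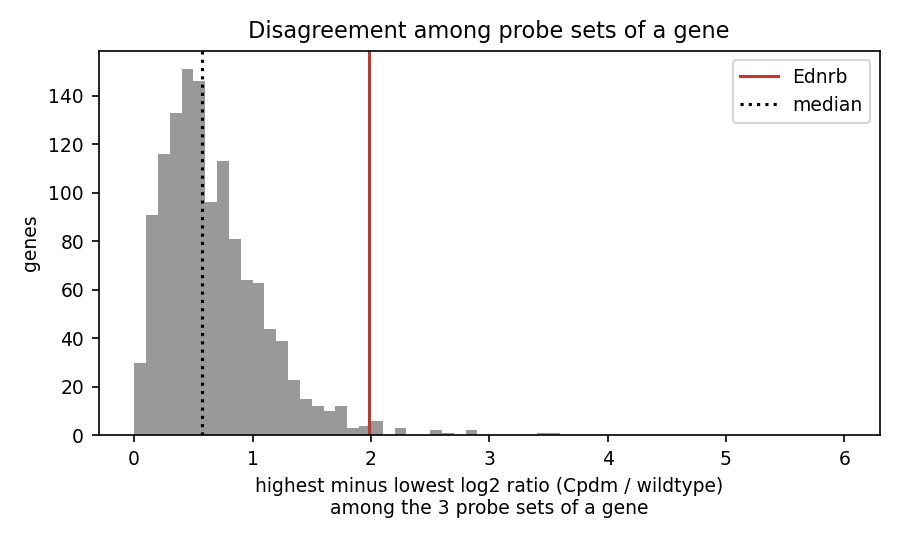
Number of genes (vertical axis) by the span of log2 ratios among their 3 probe sets (horizontal axis), for the 1262 genes with exactly 3 probe sets above both floors. The dotted line is the median of 0.57 and the red line is Ednrb at 1.98, in the sparse right tail.

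The ligand gene Edn1, which encodes the precursor of the main vascular endothelin, had a single probe set, so its ratio could not be checked against another. Its signal was 72.7 in Cpdm and 27.7 in wildtype. The Cpdm value was brighter than 70.0% of all probe sets and the wildtype value brighter than 49.7%, so the wildtype value stood close above the floor. The log2 ratio was 1.39, or 2.62-fold higher in Cpdm, and 345th from the top of all measured genes. It was smaller when low signals were damped, at 0.76 with the floor at the 60th percentile and 0.81 with 32 added to each signal, which is under 2-fold in both cases.

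The ligand gene Edn3, which encodes the endothelin that acts through receptor B in neural crest cells, differed the other way. Its brightest probe set, 1441924_x_at, read 38.7 in Cpdm and 99.7 in wildtype, a log2 ratio of -1.37, or 2.58-fold lower in Cpdm. A second probe set, 1441923_s_at, lay above the floor in the wildtype array only, at 6.01 against 26.2, which is at least 1.42-fold lower. The 2 remaining probe sets lay below the floor in both arrays, at 4.69 against 13.6 for 1421136_at and at 3.23 against 1.78 for 1438696_at. The Edn3 signal thus rested on probe sets of the x and s kinds, which can bind transcripts of related genes, while the 2 probe sets without such a suffix gave no level above the floor in either culture. With 32 added to each signal the Edn3 log2 ratio was -0.90, and as the mean of its measured probe sets it was -0.94, both under 2-fold.

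The third ligand gene, Edn2, stood outside the set of 6 and was near the floor in both arrays. Its 1 probe set read 23.1 in Cpdm and 24.8 in wildtype, a log2 ratio of -0.10. Within the ligands, then, the culture with the higher signal was Cpdm for Edn1 and wildtype for Edn3, and Edn2 was close to equal at a level where MAS5 signals are noisy.

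The converting enzyme genes were near equal in both cultures. Ece1, the main converting enzyme of the cell surface and secretory pathway, read 105 in Cpdm and 98.3 in wildtype by its brightest probe set, a log2 ratio of 0.09. Its other probe sets lay below the floor in both arrays, at 13.3 against 14.7 for 1434177_at and 6.88 against 9.28 for 1441423_at. Ece2, a related enzyme active at acidic pH, read 157 against 174, a log2 ratio of -0.15, and 41.0 against 61.3 by 1424561_at, a log2 ratio of -0.58. The latter 2 ratios lay 0.43 apart, beside a median distance of 0.31 between the first 2 probe sets of a gene. RefSeq also lists a read-through gene that joins Eef1akmt4 to Ece2, and which of these transcripts each Ece2 probe set binds was not tested. Ece1 stood near the middle of all measured genes, with 55.1% at or below its log2 ratio, and 35.7% were at or below that of Ece2.

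**Figure D3:**
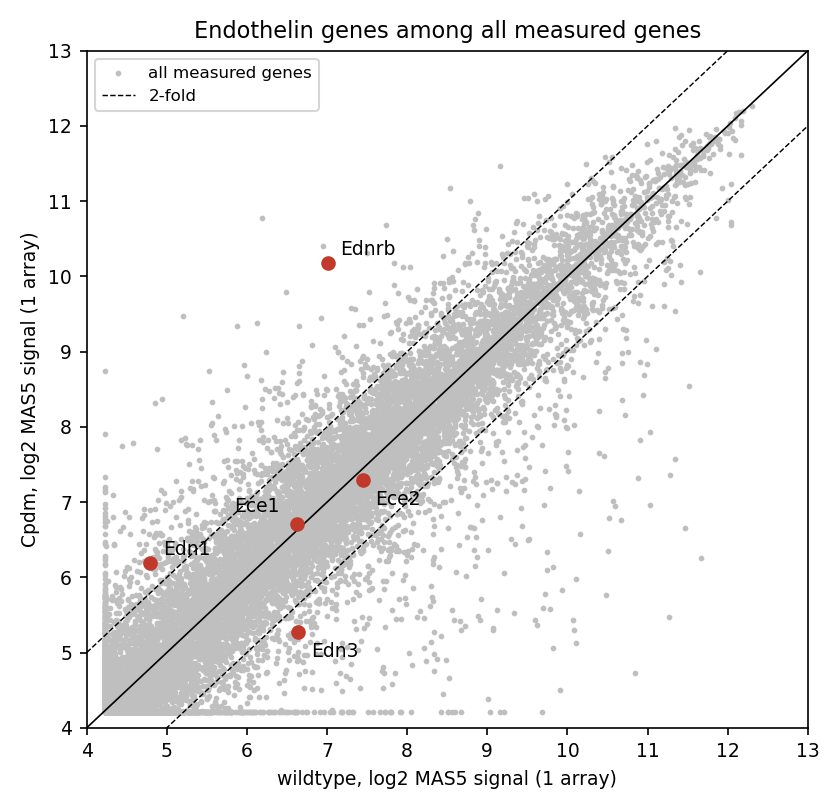
Log2 MAS5 signal of each of the 14055 measured genes in the wildtype array (horizontal axis) and the Cpdm array (vertical axis), with low signals set to the floor, the line of equality solid and the 2-fold lines dashed. Ednrb lies far above the upper 2-fold line at a log2 ratio of 3.17, Edn1 just above it, Edn3 just below the lower one, and Ece1 and Ece2 near equality.

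The array pair gives technical yardsticks only, which leave out any difference between cultures of 1 genotype. The 18 hybridisation spike-in probe sets had log2 ratios from -0.22 to 0.20, and the disagreement between the 2 brightest probe sets, taken over 5250 genes, corresponds to a robust SD of 0.32 on the log2 scale. The log2 ratios of Ece1 and Ece2 by their brightest probe sets lay within both the spike-in range and that SD. The arrays had median signals of 27.6 in Cpdm and 28.1 in wildtype and a common trimmed mean of 100, and the 3′ over 5′ signal of the actin control was 1.92 in Cpdm and 1.61 in wildtype. Sex-linked transcripts differed as well, with log2 ratios of 2.17 for Xist and -1.92 for Y-linked Uty, and their part in the endothelin values was not tested.

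Relatives of the converting enzymes in the M13 metallopeptidase family were compared next. This family also holds neprilysin, encoded by Mme, which degrades endothelins and other peptides, and Phex, the endopeptidase of bone cells that is mutated in inherited phosphate wasting. Of 5 genes 3 were measured, 2 were at least 2-fold lower in Cpdm, none was at least 2-fold higher and Ecel1 lay between. Over all measured genes 5.98% were at least 2-fold lower. Mme read 177 in Cpdm and 737 in wildtype, or 4.16-fold lower, and a second probe set read 33.6 against 92.6, a log2 ratio of -1.46. Phex read 9.66 against 825, which is at least 44.7-fold lower, while its other probe set was below the floor in both arrays. Ecel1 read 23.8 against 1.85, which is at least 1.27-fold higher, and it passed 2-fold with the floor at the 20th percentile or without one. Mmel1 and Kel were below the floor in both arrays. Within this family the converting enzymes proper were thus near equal, whereas the wildtype culture had the higher signal of Mme and Phex.

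Of 5 receptor genes close in family to the endothelin receptors, 2 were measured and neither passed 2-fold. Gpr37 and Gpr37l1 were below the floor in both arrays, at 14.2 against 1.87 and 14.1 against 4.80 in Cpdm and wildtype, as was the bombesin receptor gene Nmbr. The bombesin-type receptor genes Grpr and Brs3 read 28.2 against 26.6 and 86.7 against 95.4, with log2 ratios of 0.08 and -0.14. With the floor at the 20th percentile or without one, 2 genes of this list, Gpr37 and Gpr37l1, passed 2-fold upwards. With 32 added to each signal none did.

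Downstream signalling genes differed singly rather than as a group. Of 26 listed genes for G proteins, phospholipase C, inositol trisphosphate receptors, protein kinase C and other signalling proteins, 23 were measured, 2 were higher and 2 lower by at least 2-fold, 19 lay between, and the median log2 ratio was 0.05 beside 0.03 over all measured genes. Gna12, a G protein subunit gene, read 662 in Cpdm and 235 in wildtype, or 2.82-fold higher. Gna15, a Gq-class subunit of blood cells, read 94.8 against 39.9, or 2.37-fold higher. Gnai1, an inhibitory subunit, read 111 against 1473, or 13.3-fold lower, and 80.0 against 582 by a second probe set. Gna11, a Gq-class subunit used by both endothelin receptors, read 170 against 395, or 2.32-fold lower, but had a log2 ratio of -0.48 by its second probe set. Its close relative Gnaq had a log2 ratio of 0.42 by its brightest probe set.

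Genes that switch such receptors off were mostly higher in the Cpdm culture. The list covered receptor kinases, arrestins and RGS proteins, the last of which speed the shut-off of G proteins. Of 10 measured genes 6 were higher and 2 lower by at least 2-fold, and 2 lay between. Over all measured genes 5.84% were higher and 5.98% lower by that rule. The list had a median log2 ratio of 1.38 beside 0.03 over all measured genes. With suffixed probe sets left out of genes that have another kind the median was 0.54, and 4 genes passed 2-fold upwards. Rgs16 read 345 in Cpdm and 104 in wildtype, Grk5 read 94.1 against 30.7, and Arrb2 read 822 against 271, which are 3.31-fold, 3.06-fold and 3.03-fold higher. Arrb1, Rgs2 and Grk3 were 2.90-fold, 2.79-fold and 2.44-fold higher. Second probe sets went the same way with smaller log2 ratios, of 1.38 for Rgs16, 0.93 for Rgs2 and 0.54 for Arrb2. Further probe sets had log2 ratios of 1.01 for Rgs2 and 0.38 for Rgs16. The other Grk5 probe set was below the floor in both arrays, and Grk3 had no other probe set above the floor in both. The lower members were Rgs4, at least 2.88-fold lower with 4.19 against 53.3, and Rgs3, 2.01-fold lower with 570 against 1144, where other Rgs3 probe sets had log2 ratios of -2.29 and 0.24. With the array medians made equal, Rgs3 was under 2-fold. Macrophage markers were also higher in this culture, with a summed signal of 16017 against 12342, and their part was not tested.

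Other receptors for vasoactive peptides and lipids did not follow Ednrb. Of 20 listed genes 10 were measured, 1 was higher and 2 were lower by at least 2-fold, 7 lay between, and the median log2 ratio was -0.46. Npr3, the clearance receptor for natriuretic peptides, read 55.8 in Cpdm and 26.5 in wildtype, or 2.11-fold higher. The other Npr3 probe sets were below the floor in both arrays. With the floor at the 60th percentile or with 32 added to each signal, no gene of the list passed 2-fold upwards. Downwards, 4 genes passed with the floor at the 20th percentile and 5 without a floor. With suffixed probe sets left out of genes that have another kind, 1 passed downwards. The thrombin receptor gene F2r read 31.2 against 107, or 3.44-fold lower, and its second probe set read 28.3 against 56.8. S1pr3, a sphingosine 1-phosphate receptor gene, read 97.2 against 265, or 2.72-fold lower, and had a log2 ratio of -0.94 by a second probe set.

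**Figure D4:**
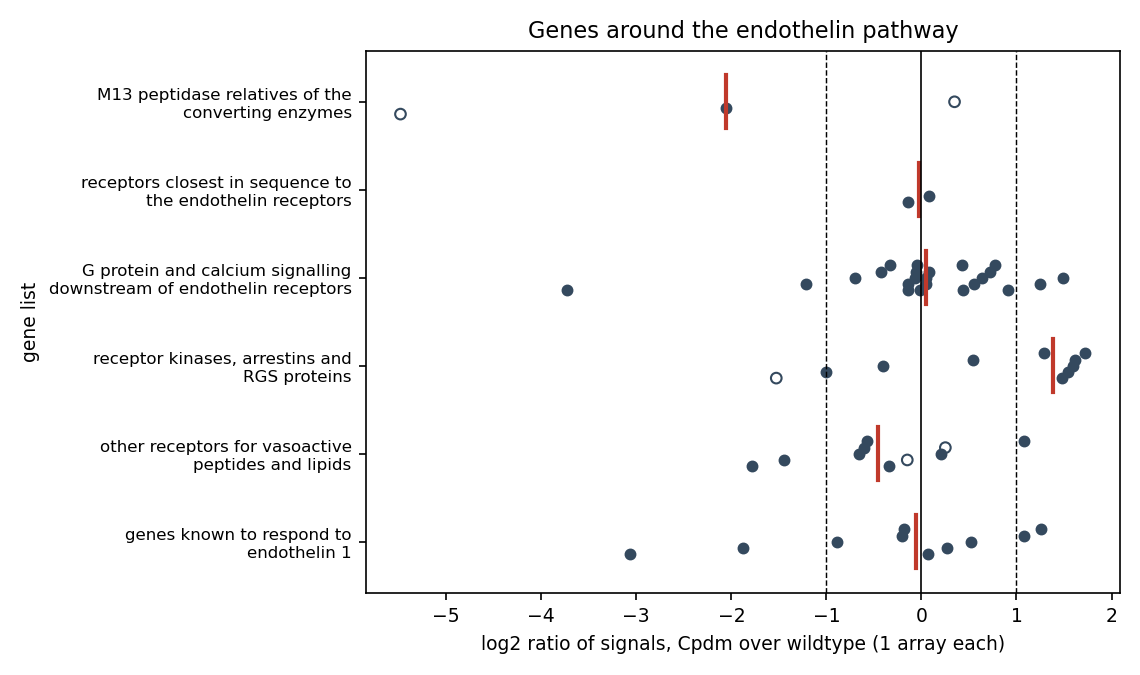
Log2 ratio of Cpdm over wildtype signal (horizontal axis) for each measured gene of the lists around the endothelin pathway, with red bars at list medians, dashed lines at 2-fold and open points where 1 array was at the floor. Receptor kinases, arrestins and RGS proteins have 6 of 10 points beyond the upper 2-fold line and 2 beyond the lower one. Every list plotted has genes on both sides of 0.

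Genes known to respond to endothelin made from Edn1 were listed as well, most of them as induced and Dkk1, a secreted Wnt antagonist, as reduced in osteoblasts. Of 10 measured genes 2 were higher in Cpdm and 2 lower by at least 2-fold, 6 lay between, and the median log2 ratio was -0.06. Ccn2, the connective tissue growth factor gene, read 2875 in Cpdm and 1206 in wildtype, or 2.38-fold higher. Hbegf, an epidermal growth factor receptor ligand gene, read 105 against 49.9, or 2.12-fold higher, and 138 against 33.4 by a second probe set. Ptgs2, the inducible cyclooxygenase gene, read 145 against 532, or 3.67-fold lower. Dkk1 read 18.6 against 155, or 8.35-fold lower, with the Cpdm value just above the floor of 18.5. The immediate early genes Fos and Egr1 were near equal, with log2 ratios of -0.19 and -0.20. Because the listed responses differ in sign, the median and the counts do not show whether the list followed them. Among the genes past 2-fold, Ccn2, Hbegf and Dkk1 differed in the direction of the listed response and Ptgs2 in the other. Vegfa was under 2-fold with a log2 ratio of -0.89, but had -1.93 by its second probe set. Of the 10 ratios, 5 were above 0 and 5 below. With 32 added to each signal 1 gene passed 2-fold upwards and 2 downwards, and with probe set means 2 and 3. Many inputs other than endothelin act on these genes, and a part of endothelin in their values was not tested.

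The 5 genes nearest to Ednrb in signal were found by the Euclidean distance between log2 signals over the 2 arrays, among genes with a name other than a clone or predicted name. Fhl1, a LIM domain protein gene, was at a distance of 0.23 with 1353 in Cpdm and 123 in wildtype. Ankrd1, a nuclear ankyrin repeat protein gene responsive to mechanical load, was at 0.50 with 1272 against 181. Npl, a sialic acid lyase gene, was at 0.64 with 889 against 184. Serpinb2, the plasminogen activator inhibitor 2 gene, was at 0.65 with 887 against 89.6, and Pld4, a gene of blood cells, at 0.67 with 763 against 157. The second Ankrd1 probe set gave a log2 ratio of 2.29, and the second Fhl1 probe set, near the floor, read 17.4 against 22.5. With 2 arrays such nearness means only a like pair of signals.

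Markers of cells that can carry endothelin receptors or ligands were read in the same arrays. Smooth muscle and myofibroblast genes, whose cells respond to endothelin by contracting, were at least 2-fold higher in Cpdm for 3 of 8 measured genes and at least 2-fold lower for 1, with 7 of 8 ratios above 0 and a summed signal of 9903 against 5467. The median log2 ratio was 0.84, and it was 1.34 with the floor at the 20th percentile, 1.92 without a floor, where 5 genes passed 2-fold upwards in both cases, and 0.48 with probe set means. Tagln read 2059 against 442, Cnn1 245 against 53.4 and Actg2 800 against 211, while Acta2, the brightest member, read 3580 against 2201, and Myh11, a defining gene of mature smooth muscle, was below the floor in both arrays. Des was the lower member, at 27.3 against 90.1. In the pericyte list 5 of 7 genes were measured and 1, Cspg4, was at least 2-fold lower. The other Cspg4 probe set, above the floor in wildtype only, read 6.62 against 124. With 32 added to each signal no gene of the list passed 2-fold downwards. The median log2 ratio was 0.47, and -0.15 with suffixed probe sets left out of genes that have another kind. The summed signal was 618 against 427, of which Pdgfrb, the brightest member, gave 430 against 225. Kcnj8 and Mcam were below the floor.

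Markers of endothelial cells, a main source of Edn1 and a site of Ednrb, gave little signal in either culture. The defining genes Pecam1, Cdh5, Tek, Tie1 and Emcn were below the floor in both arrays, and the 6 measured genes of 11 had a summed signal of 221 in Cpdm and 319 in wildtype. Flt1 was at least 3.34-fold lower by its brightest probe set, but another read 20.6 in Cpdm and 19.2 in wildtype. No gene of the list passed 2-fold downwards with probe set means or with the floor at the 60th percentile. Kdr, the brightest, read 75.7 against 97.9.

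Cells of neural crest origin, in which Ednrb is best known, were checked through melanocyte and glial genes. In the melanocyte list 6 of 8 genes were measured and none passed 2-fold, with a summed signal of 613 in Cpdm and 422 in wildtype. The brightest member was Mitf, a transcription factor gene that osteoclasts and macrophages also use, at 406 against 211. The pigment enzyme genes Tyr and Dct were near the floor, at 24.2 against 33.2 and 26.7 against 19.4, and Tyrp1 and Mlana were below it. In the Schwann and glial list 6 of 9 genes were measured, with a summed signal of 450 against 283. S100b was 2.36-fold higher, with a log2 ratio of 0.54 by a second probe set. Mbp, the brightest, read 167 against 88.5, while its other probe sets above both floors read 30.9 against 40.3 and 33.4 against 24.1. A further Mbp probe set, above the floor in wildtype only, read 17.3 against 33.1. Sox10 read 68.1 against 42.1, with its other probe sets below the floor in both arrays, and Foxd3 was below the floor.

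Among the 9 marker lists, osteoblast genes had the median farthest from 0. Of 7 measured genes 6 were at least 2-fold lower in Cpdm, beside 5.98% of all measured genes. The list had a median log2 ratio of -2.98 and a summed signal of 4910 against 14748. Pth1r, the parathyroid hormone receptor gene, read 81.7 against 1460, Alpl, alkaline phosphatase, read 130 against 1518, and Phex has been given above. Ibsp, the brightest, read 3159 against 4130, and 832 against 5156 by a second probe set. Ednrb and Edn1 were thus higher, and Edn3 lower, in the culture with the lower osteoblast signals.

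Macrophage genes were bright in both cultures, with a summed signal of 16017 in Cpdm and 12342 in wildtype. All 10 were measured, 3 passed 2-fold upwards and none downwards, beside 5.84% and 5.98% of all measured genes. The list had a median log2 ratio of 0.61. Marco was at least 8.64-fold higher, Cx3cr1 read 259 against 46.9, Msr1 was 2.01-fold higher, and Lyz2, the brightest, read 2657 against 3507. Other Msr1 probe sets above both floors had log2 ratios of 0.85 and 0.58. Csf1r had a log2 ratio of 0.46 by its brightest probe set, but 1.25 and 1.12 by its others. For these genes the passing of 2-fold thus rested on the probe set. In the mast cell list 4 of 7 genes were measured with a summed signal of 100.05 against 112, and Cpa3, the brightest, read 37.7 against 28.3. Kit was 2.39-fold lower at 20.4 against 48.7, with the Cpdm value close above the floor. The other Kit probe set was below the floor in both arrays, as were Fcer1a, Mcpt4 and Tpsb2. Adipocyte genes had a summed signal of 2132 against 2510 with none of 5 past 2-fold, and Lpl was the brightest at 961 against 1575. The part of any of these cell types in the Ednrb, Edn1 and Edn3 values was not tested.

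**Figure D5:**
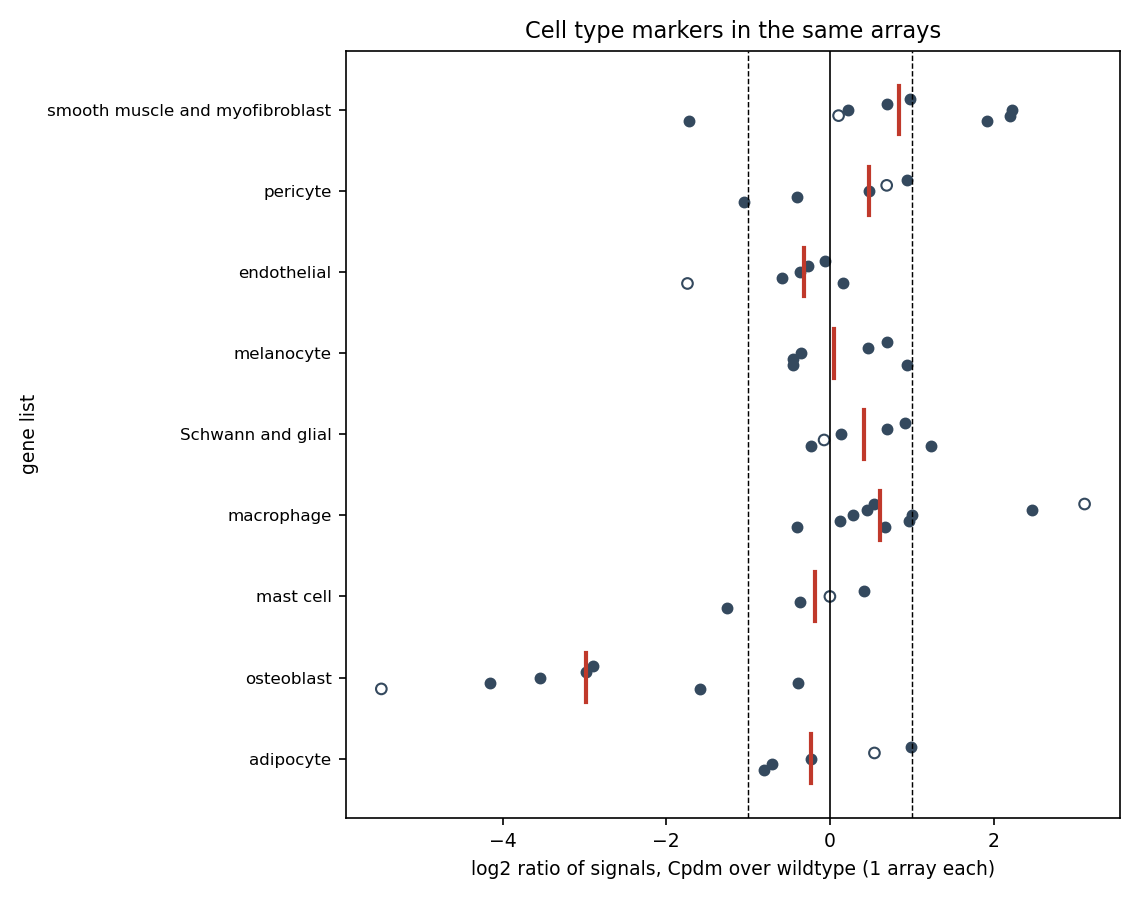
Log2 ratio of Cpdm over wildtype signal (horizontal axis) for each measured gene of 9 cell type marker lists, with red bars at list medians, dashed lines at 2-fold and open points where 1 array was at the floor. Osteoblast genes lie to the left with a median of -2.98, and smooth muscle and macrophage genes lie mostly to the right with medians of 0.84 and 0.61.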

How the data were processed

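RNA of 1 Cpdm and 1 wildtype culture was hybridised to 1 Affymetrix array each. Per the labels' protocols, biotinylated cRNA was made from 5 µg of total RNA. The authors deposited linear MAS5 signal intensity values, for which GCOS 1.4 and MAS5 stand in the submitters' processing notes. The sources used here do not give the scaling target, background settings or genome build, and no detection calls were used here. MAS5 values of dim probe sets are noisy.

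Signals were used as deposited. Values under the 40th percentile of each array (18.5 in Cpdm, 18.7 in wildtype) were set to that floor, and a ratio with 1 value at the floor is written "at least". Of the probe sets above the floor in at least 1 array, the one brightest on average on the log2 scale stood for the gene. Genes were counted by a difference of at least 2-fold. Entrez identifiers matched RefSeq for all 13 endothelin probe sets.

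With 1 array per genotype there is no test and no p-value, and the number of arrays limits the precision. The endothelin genes, the 7 pathway lists and the 9 marker lists were chosen with earlier results of these data known. Named genes were all endothelin probe sets, the measured members of the short lists and up to 6 members past 2-fold of the other pathway lists. Of each marker list they were the brightest member with up to 3 past 2-fold. Fos, Egr1, Vegfa, Gnaq, Grk3, Rgs3, Des, Tyr, Dct, Sox10, Csf1r and genes below the floor were named in addition, after their values were seen. Scripts used Python 3.11.15, numpy 2.4.6, pandas 2.3.3 and matplotlib 3.10.9, and the counting code was tested on simulated data. Those data held planted changes larger than 2-fold in brighter genes, with noise of about the spike-in size. That test does not cover calls near the floor or differences between cultures. The 8 alternatives covered scaling, floor, pseudocount and probe set choice.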

Additional observations from a re-analysis of the deposited data

How the results depend on the processing

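The Ednrb log2 ratio stayed between 2.89 and 3.19 under 7 of the 8 alternatives and was 2.08 as the mean of its probe sets. The count of endothelin genes past 2-fold was 3 under both other scalings, with the floor at the 20th percentile and without a floor, 2 with the floor at the 60th percentile, with probe set means and with suffixed probe sets left out of genes that have another kind, and 1 with 32 added to each signal. In that setting without suffixes Edn3 and Ece1 gave no value, and Edn1 was kept by its only probe set, which has a suffix, so of the genes past 2-fold Ednrb alone rested on a probe set without one. Ednrb stayed past 2-fold under all 8 alternatives. No endothelin gene changed the sign of its ratio under an alternative that gave it a value. Over all measured genes, 1265 were at least 2-fold higher and 1397 lower with the floor at the 20th percentile, 1741 and 1885 without a floor, and 431 and 487 with 32 added, beside 821 and 840 as reported. The median of the M13 peptidase list was 0.054 without a floor and 0.0083 with 32 added, beside -2.06 as reported, because its 2 members below the floor in both arrays, Mmel1 and Kel, then counted too. Signal over background limits Edn1 in wildtype, all Edn3 probe sets and Edn2, and no setting can stand in for a second culture. No paired analysis was possible because each genotype has 1 array.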
